A study of Mus musculus with 33 samples.

Results

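Dorsal skin taken 3 days after depilation (D3) was compared with resting skin from the natural hair cycle at postnatal day 44 (P44). The comparison rests on 5 of the 33 arrays of the series, taken by their time point labels, and covers every gene on the array: 2 arrays were from D3 and 3 from P44. All mice were wild-type C57BL/6, and each array held labelled RNA from the upper-mid back skin of 1 mouse. The D3 mice were both female and were at least 50 days old. A mixture of wax and rosin had been applied to their backs at 7 weeks of age, when their follicles were in telogen, the resting phase of the hair cycle. The P44 mice were not depilated, and replicate 1 was female while replicates 2 and 3 were male. The sample labels of the P44 arrays name early anagen, the start of the growth phase, whereas the design text of the series places P44 in telogen, and D3 is early anagen in both. The other 28 arrays follow natural cycling from P23 onward and the depilation-induced cycle up to day 17 (D17). Depilation, the age of the mice and, against 2 of the 3 P44 arrays, their sex differ together between the groups and cannot be told apart. In whole skin, fewer cells of a type and less RNA per cell cannot be told apart either.

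A telogen follicle consists of a bulge of stem cells and a small hair germ that sit above the dermal papilla, a cluster of mesenchymal cells that sends growth signals. Hair shafts that have stopped growing stay anchored in it as club hairs. Plucking with wax removes these shafts, wounds the follicle lining and starts a new growth phase in all follicles of the area at the same time. In the first days, cells of the hair germ divide. Later a new bulb forms, Sonic hedgehog is made in its epithelium, and the matrix produces the inner root sheath and the hair shaft. WNT signals favour growth and BMP signals favour rest.

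The values compared were MAS 5.0 signals, a linear brightness per probe set (a group of probes for 1 transcript) that had been scaled to a similar mean on every array, and differences are given as log2 of D3 minus P44 with their standard error. They were tested with limma in a fit of all 33 arrays, with p-values adjusted by the Benjamini-Hochberg method over 27793 probe sets and a threshold of 0.05. Of 13116 genes, each represented by 1 probe set, 1703 were higher in D3 skin, which is 13% of the genes tested, and 2410 were lower, which is 18.4%. Among them, 477 were at least 2-fold higher and 972 at least 2-fold lower. The D3 and P44 signals did not overlap for 4024 of the 4113 called genes, so a lack of overlap adds little to a call. The median difference over all genes was -0.06. At the level of probe sets 8988 passed, of which 40.7% were higher, and this share was 55.7% when each array was centred on its median, a scaling that put the median difference over all probe sets at 0.045, against -0.07 as deposited. Without D3 replicate 1, 4639 probe sets passed. Correlations of log2 signals were 0.961 between the D3 arrays, 0.879 to 0.922 between a D3 and a P44 array, and 0.954 to 0.975 among the P44 arrays. Each call reported below with its signals was also made with any single one of the 5 arrays left out, unless the array that ended it is named. Genes named only under Other observations were not checked in this way. Where leaving out an array moved a count of 1 or more list members by over 1.5 times, the count without that array is given too. The epidermal keratins of skin were abundant on all 5 arrays: Krt14, made in basal keratinocytes, gave 36639 and 28706 on the D3 arrays, against 15086, 19899.9 and 18845 on the P44 arrays, and Krt10, made in the layers above, gave 27139.9 and 35554 on the D3 arrays, against 37895, 47940.4 and 43335 on the P44 arrays.

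**Figure D1:**
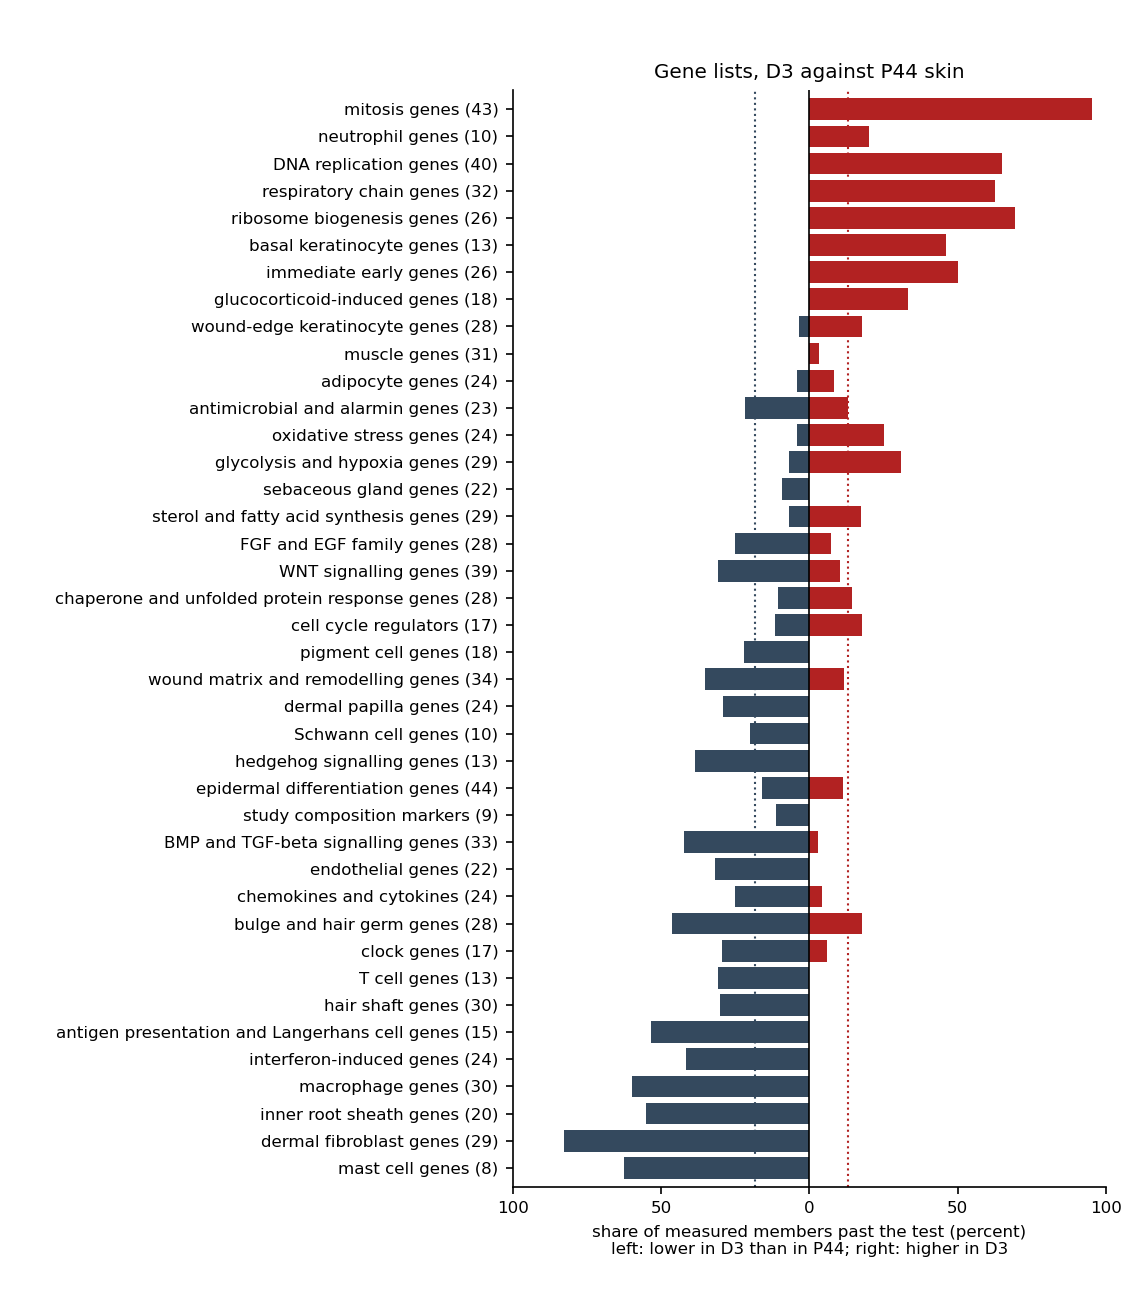
Share of the measured members of each gene list that passed the test for D3 against P44. Each row is a list with its number of measured genes; bars to the right (red) give the percentage of members higher in D3 skin, bars to the left (blue) the percentage lower, and dotted lines mark the same percentages over all 13116 genes (13% and 18.4%). Lists are ordered by their median log2 difference, with mitosis genes at the one end and dermal fibroblast genes near the other.

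Of the lists drawn up for skin, mitosis genes had the largest share of members higher in D3 skin (95.3%). Of 43 measured mitosis genes, 41 were higher in D3 skin and 0 were lower, with a median difference of 2.18 against -0.06 over all genes. The count was 39 to 41 when any one array was left out, and 38 in a fit of the female arrays alone. DNA replication genes were higher in 26 of 40 cases, with a median of 0.81, and 0 were lower. That count was 15 without D3 replicate 2 and 18 without D3 replicate 1.

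The proximal promoters of 4 mitosis genes and 2 replication genes that rose together are shown here because genes of these classes are known to carry short shared elements close to their start. Each promoter shown holds both elements marked in it, unlike most members of its class, for which shares are given below. Each line gives the 250 bases before the RefSeq start site on the gene's own strand, read 5′ to 3′, from RefSeq on mouse build GRCm38.p6. Capitals mark the CCAAT box, which NF-Y binds, and the cell cycle gene homology region (CHR), spelled TTTGAA, in the first 4 promoters. In the last 2 they mark the CCAAT box and an E2F site, spelled GCGGGAA. Both strands were searched. The windows lie at chr4:118437344-118437593 on the minus strand (Cdc20), chr10:69352913-69353162 on the minus strand (Cdk1), chr2:164769679-164769928 on the plus strand (Ube2c), chr7:135716380-135716629 on the minus strand (Mki67), chr5:138171884-138172133 on the minus strand (Mcm7) and chr4:132768110-132768359 on the plus strand (Rpa2).
Cdc20: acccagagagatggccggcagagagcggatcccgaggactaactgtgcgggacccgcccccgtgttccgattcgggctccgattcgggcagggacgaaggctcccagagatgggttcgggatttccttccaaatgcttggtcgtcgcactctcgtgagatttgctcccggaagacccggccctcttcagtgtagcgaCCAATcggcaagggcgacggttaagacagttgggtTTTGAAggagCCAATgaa
Cdk1: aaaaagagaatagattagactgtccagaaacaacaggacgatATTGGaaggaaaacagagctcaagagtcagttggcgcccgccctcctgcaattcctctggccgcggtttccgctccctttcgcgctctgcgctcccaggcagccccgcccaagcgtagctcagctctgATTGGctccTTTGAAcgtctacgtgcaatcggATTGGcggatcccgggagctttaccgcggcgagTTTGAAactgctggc
Ube2c: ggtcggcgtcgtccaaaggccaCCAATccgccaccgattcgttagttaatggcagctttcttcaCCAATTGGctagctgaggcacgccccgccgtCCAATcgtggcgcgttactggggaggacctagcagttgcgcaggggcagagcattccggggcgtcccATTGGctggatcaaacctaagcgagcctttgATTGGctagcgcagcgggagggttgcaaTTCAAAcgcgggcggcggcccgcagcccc
Mki67: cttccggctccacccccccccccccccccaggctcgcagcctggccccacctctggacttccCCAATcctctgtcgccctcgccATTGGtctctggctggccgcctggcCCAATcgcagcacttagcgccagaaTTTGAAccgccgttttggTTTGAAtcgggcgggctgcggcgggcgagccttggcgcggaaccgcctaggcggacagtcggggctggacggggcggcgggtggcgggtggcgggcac
Mcm7: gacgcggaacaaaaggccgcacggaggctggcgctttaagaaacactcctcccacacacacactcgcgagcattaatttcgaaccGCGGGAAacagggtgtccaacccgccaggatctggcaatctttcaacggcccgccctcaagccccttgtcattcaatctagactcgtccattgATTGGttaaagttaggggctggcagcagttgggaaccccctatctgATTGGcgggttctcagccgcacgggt
Rpa2: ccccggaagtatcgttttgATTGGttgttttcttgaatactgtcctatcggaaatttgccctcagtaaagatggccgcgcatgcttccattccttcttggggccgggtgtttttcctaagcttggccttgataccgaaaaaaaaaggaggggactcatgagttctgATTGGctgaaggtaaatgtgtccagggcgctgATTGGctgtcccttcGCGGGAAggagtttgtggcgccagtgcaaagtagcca

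Of the 43 mitosis genes, 36 had a promoter in the RefSeq table, and 28 of these (77.8%) held CCAAT in the 250 bases, against 36% of the 10544 tested genes with a promoter and 34.5% of the 27025 genes in the table. TTTGAA was present in 12 of the 36 (33.3%), against 10.7% of tested genes, and both motifs were present in 11 (30.6%), against 3.95%. GCGGGAA was in 0 of the 36, in 9 of the 33 replication genes with a promoter (27.3%) and in 6.67% of tested genes. Birc5 and Anln, which also rose, held neither CCAAT nor TTTGAA, and Lig1, Cdt1 and Tk1 held neither CCAAT nor GCGGGAA. In the Cdc20 promoter CCAAT began 53 and 8 bases before the start and TTTGAA 18 bases before it, and in the Ube2c promoter there were 6 CCAAT sites, of which the pair at 186 and 183 bases overlap. Such matches describe the letters and do not show that a factor was bound.

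Cdc20, the activator of the anaphase-promoting complex, gave 5054 and 3390.2 on the D3 arrays, against 354, 474 and 712 on the P44 arrays (3.07 ± 0.33, adjusted p = 1.6e-06). Cdk1, the kinase that drives entry into mitosis, gave 1952 and 1441 on the D3 arrays, against 165, 257 and 264 on the P44 arrays (2.90 ± 0.32, adjusted p = 2.2e-06). Mki67, the standard marker of cycling cells, gave 4781 and 3504 on the D3 arrays, against 601, 615 and 684 on the P44 arrays (2.69 ± 0.28, adjusted p = 1.2e-06). On these 3 genes both D3 arrays stood at more than 4 times the highest P44 array. Ube2c, the ubiquitin-conjugating enzyme that works with Cdc20, gave 2281 and 1565 on the D3 arrays, against 177, 286 and 324 on the P44 arrays (2.89 ± 0.36, adjusted p = 7.2e-06). Kif22, a kinesin that moves chromosomes, gave 3632 and 3875 on the D3 arrays, against 376, 453 and 585 on the P44 arrays (3.02 ± 0.34, adjusted p = 2.9e-06). Ect2, which is needed for cytokinesis, gave 1079 and 849 on the D3 arrays, against 82, 166 and 156 on the P44 arrays (2.90 ± 0.35, adjusted p = 5.5e-06). The groups did not overlap for any of these genes, which the choice of the 15 largest rises required for all but Mki67. Sgo1, shugoshin 1, which protects cohesion at the centromere, gave 394 and 374 on the D3 arrays, against 28.2, 111 and 7.8 on the P44 arrays (2.91 ± 0.44, adjusted p = 5.6e-05), with 2 P44 arrays under the floor of 34.6 set for low signals. Birc5, Plk1, Cdca8, Cenpa and Anln, which act at the centromere, the spindle or the cleavage furrow, rose by 2.07 to 2.65 on the log2 scale. The members that did not pass were Foxm1 (0.27 ± 0.30, adjusted p = 0.54), a transcription factor of mitosis genes, and Kif4 (0.65 ± 0.25, adjusted p = 0.052), a chromosome-bound kinesin.

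Replication genes moved less. Rrm2, a subunit of ribonucleotide reductase, gave 2204 and 2787 on the D3 arrays, against 709.9, 913 and 956 on the P44 arrays (1.54 ± 0.23, adjusted p = 5.2e-05). Tk1, thymidine kinase, gave 817 and 822 on the D3 arrays, against 204, 352 and 246 on the P44 arrays (1.65 ± 0.31, adjusted p = 0.00047). Mcm7, part of the replicative helicase, gave 3391 and 3831 on the D3 arrays, against 1799, 1912 and 2127 on the P44 arrays (0.89 ± 0.18, adjusted p = 0.00079). Rpa2, which binds single-stranded DNA, gave 828 and 809 on the D3 arrays, against 428, 277 and 415 on the P44 arrays (1.16 ± 0.21, adjusted p = 0.00036). Lig1, which seals Okazaki fragments, and Cdt1, which licenses origins, rose by 1.27 and 1.20 on the log2 scale. Every D3 value of these 6 genes was above every P44 value.

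Among 17 measured cell cycle regulators, 3 were higher, 2 lower and 12 did not pass. The shares higher and lower were 17.6% and 11.8%, against 13% and 18.4% of all genes. The count of higher genes was 1 without D3 replicate 1, D3 replicate 2, P44 replicate 2 or P44 replicate 3, and the count of lower genes was 1 without D3 replicate 1, P44 replicate 1 or P44 replicate 2. Cdkn2d, the CDK4 and CDK6 inhibitor p19, gave 1125 and 1204 on the D3 arrays, against 554, 773 and 663 on the P44 arrays (0.82 ± 0.16, adjusted p = 0.0005). Cdkn2b, which encodes the related inhibitor p15, gave 181 and 266 on the D3 arrays, against 474, 379 and 453 on the P44 arrays (-0.98 ± 0.21, adjusted p = 0.0012), and its adjusted p was 0.06 without D3 replicate 1. Both D3 arrays were thus high for the one inhibitor and low for the other. Myc (0.53 ± 0.20, adjusted p = 0.046), Rbl1 (0.52 ± 0.19, adjusted p = 0.035) and Mycn (-0.81 ± 0.29, adjusted p = 0.034) passed narrowly, and each lost its call without D3 replicate 1 (adjusted p = 0.09, 0.14 and 0.36). Without D3 replicate 2 the values were 0.24 for Myc and 0.12 for Rbl1, and leaving out a P44 array ended the call of all 3 genes in at least 1 case. The D-type cyclins that push cells out of rest did not pass: Ccnd1 gave 1316 and 1795 on the D3 arrays, against 2096, 2406 and 2167 on the P44 arrays (-0.53 ± 0.27, adjusted p = 0.14), and Ccnd2 (-0.12 ± 0.30, adjusted p = 0.8) and Ccnd3 (-0.19 ± 0.16, adjusted p = 0.39) overlapped between the groups, although of the 7 kept Ccnd2 probe sets 2 were called higher and 1 lower. Cdkn1a, p21, gave 4028 and 5369.9 on the D3 arrays, against 3155, 3963 and 3503 on the P44 arrays (0.40 ± 0.18, adjusted p = 0.09) and did not pass on this probe set, while its other kept probe set was called higher. Cdkn1b, p27, gave 1738 and 1793 on the D3 arrays, against 1333, 1485 and 1612 on the P44 arrays (0.26 ± 0.20, adjusted p = 0.35). The other regulators that did not pass were the inhibitors Cdkn1c (-0.48 ± 0.29, adjusted p = 0.22) and Cdkn2c (-0.19 ± 0.18, adjusted p = 0.45), the retinoblastoma family members Rb1 (0.0 ± 0.13, adjusted p = 0.99) and Rbl2 (-0.09 ± 0.14, adjusted p = 0.65, with another probe set called lower), the p53 targets Ccng1 (0.55 ± 0.31, adjusted p = 0.18) and Mdm2 (-0.30 ± 0.18, adjusted p = 0.21), and Wee1 (0.34 ± 0.20, adjusted p = 0.21), a kinase that holds back CDK1.

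**Figure D2:**
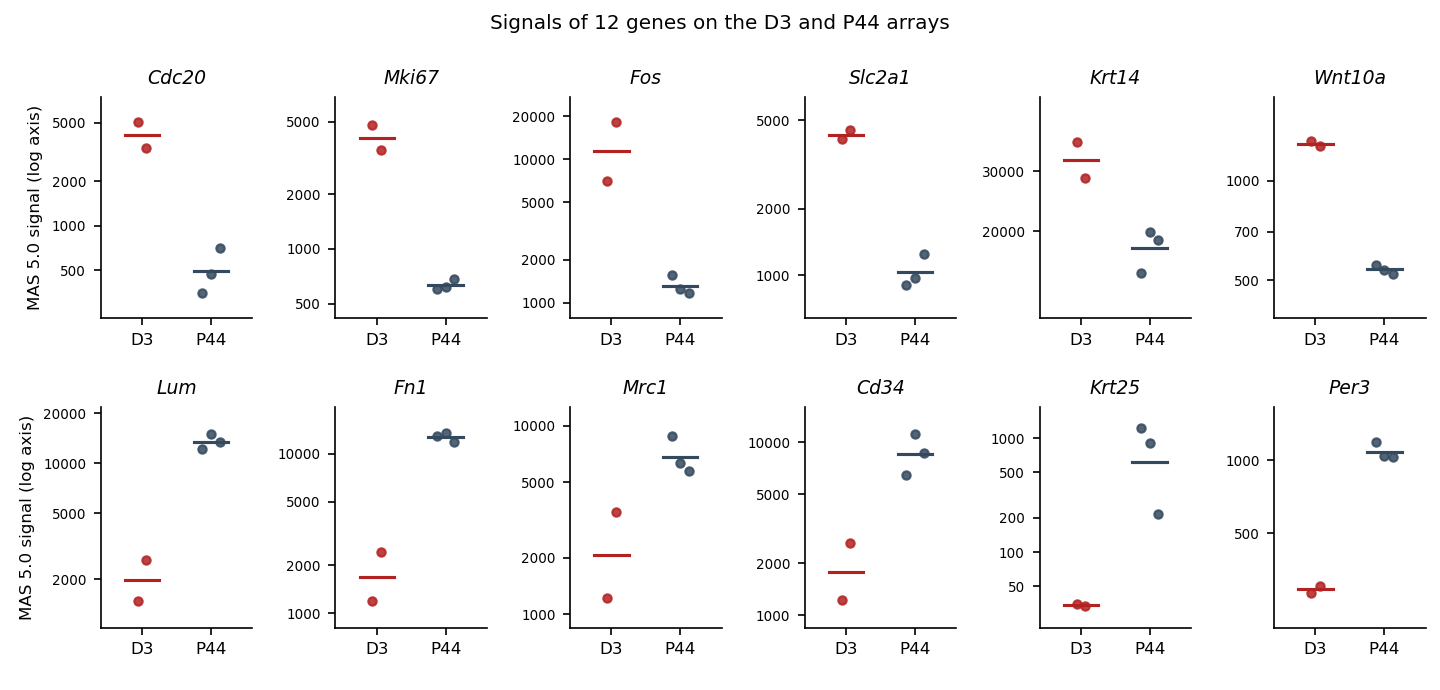
Signals of 12 genes on the 2 D3 arrays (left in each panel) and the 3 P44 arrays (right); the vertical axis is the MAS 5.0 signal on a log scale, points are arrays and bars are geometric means. The top genes are high at D3 (Cdc20, Mki67, Fos, Slc2a1, Krt14 and Wnt10a), and the remaining ones are low at D3 (Lum, Fn1, Mrc1, Cd34, Krt25 and Per3), with D3 replicate 1 the lower of the pair for Mrc1.

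Genes that build ribosomes and genes of the respiratory chain were also higher. Ribosome biogenesis genes were higher in 18 of 26 cases and lower in 0, with a median of 0.52. In a fit of only the arrays compared, 8 were higher. The count was 9 without D3 replicate 2. Nop58, a core protein of the box C/D snoRNPs, gave 892 and 1052 on the D3 arrays, against 254, 276 and 227 on the P44 arrays (1.95 ± 0.27, adjusted p = 2.4e-05). Fbl, the methyltransferase of the same particles, gave 3471 and 4108 on the D3 arrays, against 2173, 1673 and 1779 on the P44 arrays (1.02 ± 0.16, adjusted p = 7.9e-05). Gar1 and Dkc1, of the pseudouridine-forming snoRNPs, rose by 1.12 and 1.04, and Ncl, nucleolin, gave 11211 and 12334 on the D3 arrays, against 6548, 6532 and 6579 on the P44 arrays (0.84 ± 0.14, adjusted p = 0.00015). The P44 arrays were nearly level for Ncl, and both D3 arrays were well above them. Of 32 respiratory chain genes, 20 were higher and 0 lower, with a median of 0.53. That count depended on the arrays and the scaling: it was 6 without D3 replicate 1, 27 without D3 replicate 2, 13 after quantile normalization and 0 in the female arrays alone. Cox5a, of cytochrome oxidase, gave 21955 and 16498 on the D3 arrays, against 11703, 10447 and 11772 on the P44 arrays (0.75 ± 0.14, adjusted p = 0.00031), and Cycs, cytochrome c, gave 22716 and 15323 on the D3 arrays, against 10553, 9112 and 9521 on the P44 arrays (0.94 ± 0.19, adjusted p = 0.0008). D3 replicate 1 was the highest array for both.

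Dorsal skin of the mouse includes a sheet of muscle, the panniculus carnosus, and muscle genes were highest on D3 replicate 1. The summed signal of the 31 muscle genes was 863725 and 592132 on the D3 arrays, against 627856, 602228 and 561931 on the P44 arrays. Of these genes 1 was higher and 0 lower, and the median was 0.26. The gene that passed was Myh2, a fast myosin heavy chain, with 29897 and 17866 on the D3 arrays, against 14189.7, 4381 and 5911 on the P44 arrays (1.69 ± 0.62, adjusted p = 0.04), and its adjusted p was 0.28 without D3 replicate 1, 0.057 without D3 replicate 2, 0.14 without P44 replicate 2 and 0.099 without P44 replicate 3. Muscle fibres are rich in mitochondria and in glycolytic enzymes, and the part of muscle RNA in those lists was not tested.

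Of 29 glycolysis and hypoxia genes, 9 were higher and 2 lower, and 1 was higher and 0 lower without D3 replicate 1, and 1 was lower without D3 replicate 2 or P44 replicate 3. Their shares higher and lower were 31% and 6.9%, against 13% and 18.4% of all genes. Slc2a1, the glucose transporter GLUT1 of keratinocytes and other dividing cells, gave 4092 and 4528 on the D3 arrays, against 907, 972 and 1245 on the P44 arrays (2.06 ± 0.25, adjusted p = 6e-06). It was more than 3 times the highest P44 signal on both D3 arrays. Hexokinase 2 (Hk2) gave 6202 and 3652 on the D3 arrays, against 2811, 2134 and 2289 on the P44 arrays (0.99 ± 0.23, adjusted p = 0.0025), with D3 replicate 1 the higher, and its adjusted p was 0.12 without that array. Pgk1 (0.71 ± 0.19, adjusted p = 0.0056) and Pkm (0.58 ± 0.18, adjusted p = 0.016), enzymes of the later steps, were likewise at adjusted p = 0.14 and 0.4 without it. Of 24 oxidative stress genes 6 were higher and 1 lower (25% and 4.17%), and 3 were higher without D3 replicate 1. The lower one was Gpx3 (-0.98 ± 0.30, adjusted p = 0.017), a secreted glutathione peroxidase, and the count of lower genes was 0 without D3 replicate 1 or P44 replicate 2 and 2 without D3 replicate 2. Gsta4, a glutathione transferase that detoxifies lipid peroxidation products, gave 817 and 576 on the D3 arrays, against 212, 166 and 239.8 on the P44 arrays (1.75 ± 0.26, adjusted p = 4.2e-05), and Gclm, the modifier subunit of glutamate cysteine ligase, gave 1133 and 1172 on the D3 arrays, against 518, 585 and 568 on the P44 arrays (1.05 ± 0.18, adjusted p = 0.00015). For both genes the D3 arrays were above all P44 arrays.

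Sterol and fatty acid synthesis genes were higher in 5 and lower in 2 of 29 cases (17.2% and 6.9%, against 13% and 18.4% of all genes). The count of higher genes was 3 without D3 replicate 1 or P44 replicate 2 and 2 without P44 replicate 3, and the count of lower genes was 1 without D3 replicate 1 and 4 without D3 replicate 2. Fdft1, squalene synthase, gave 3427 and 3403 on the D3 arrays, against 1985, 1796 and 1791 on the P44 arrays (0.88 ± 0.15, adjusted p = 0.00017), and Elovl5, a fatty acid elongase, gave 2863 and 4799 on the D3 arrays, against 7013, 12476 and 9984 on the P44 arrays (-1.37 ± 0.24, adjusted p = 0.0002). The groups were apart for both, in opposite directions. Chaperone and unfolded protein response genes were higher in 4 and lower in 3 of 28 cases, and both counts were 0 without D3 replicate 1. Without D3 replicate 2, 2 were higher and 1 lower, and without P44 replicate 1, 1 was lower. On all arrays the shares higher and lower were 14.3% and 10.7%, against 13% and 18.4% of all genes. The higher genes were Cryab (1.23 ± 0.30, adjusted p = 0.0034), a small heat shock protein that is abundant in muscle, the mitochondrial chaperonins Hspd1 (0.61 ± 0.18, adjusted p = 0.011) and Hspe1 (0.68 ± 0.19, adjusted p = 0.0084), and Hspa8 (0.59 ± 0.22, adjusted p = 0.04), the constitutive HSC70, of which another probe set was called lower. Of the other lists, 0 of 10 Schwann cell genes and 0 of 3 red blood cell genes were higher, and 2 and 0 were lower. The share of Schwann cell genes lower was 20%, near the 18.4% of all genes. The 2 Schwann cell genes were Pmp22 (-0.71 ± 0.18, adjusted p = 0.0056), a myelin protein that fibroblasts make too, and S100b (-0.76 ± 0.25, adjusted p = 0.025), and the count was 1 without D3 replicate 1, D3 replicate 2 or P44 replicate 1.

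Immediate early genes, which are switched on within minutes of a stimulus such as a growth factor or an injury, were higher in 13 of 26 cases and lower in 0. Their median was 0.49, and the count was 6 without D3 replicate 2. Fos, a subunit of AP-1, gave 7098 and 18311 on the D3 arrays, against 1559, 1248 and 1169.5 on the P44 arrays (3.12 ± 0.54, adjusted p = 0.00021). Egr1, a zinc finger factor, gave 8453 and 15664 on the D3 arrays, against 2055, 2618 and 2821 on the P44 arrays (2.22 ± 0.27, adjusted p = 6.6e-06). Junb, another AP-1 subunit, gave 1324 and 2937 on the D3 arrays, against 324, 562 and 462 on the P44 arrays (2.17 ± 0.35, adjusted p = 9.7e-05). In all 3 cases D3 replicate 2 was the higher of the D3 arrays, and both were above every P44 array. Nr4a1, an orphan nuclear receptor, gave 3664 and 4129 on the D3 arrays, against 1350.4, 1229 and 1314 on the P44 arrays (1.58 ± 0.32, adjusted p = 0.00074), and Ccn1, a secreted matrix protein, gave 1624 and 2995 on the D3 arrays, against 596, 762 and 828 on the P44 arrays (1.61 ± 0.32, adjusted p = 0.00065). Members that did not pass include Egr2 (0.34 ± 0.24, adjusted p = 0.3), Fosl2 (-0.09 ± 0.15, adjusted p = 0.68) and Klf4 (-0.26 ± 0.22, adjusted p = 0.4). The glucocorticoid-induced genes, some of which stress hormones also switch on in skin, were higher in 6 of 18 cases and lower in 0, and the count was 3 without D3 replicate 1 or without D3 replicate 2. Mt2, a metallothionein, gave 19559 and 15467 on the D3 arrays, against 4584, 5541 and 5448 on the P44 arrays (1.75 ± 0.35, adjusted p = 0.00064), with no overlap.

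Keratinocyte genes of the wound edge were higher in 5 of 28 cases, which is 17.9% against 13% of all genes, and lower in 1. The count of higher genes was 3 without D3 replicate 2 or without P44 replicate 1, and the count of lower genes was 0 without D3 replicate 1 or P44 replicate 2, 2 without P44 replicate 1 and 4 without D3 replicate 2. Hbegf, an EGF receptor ligand released by injured keratinocytes, gave 607 and 938 on the D3 arrays, against 166, 148 and 169.9 on the P44 arrays (2.23 ± 0.31, adjusted p = 2.4e-05). Fosl1, the AP-1 subunit FRA-1, gave 464 and 254 on the D3 arrays, against 81.4, 59 and 68.1 on the P44 arrays (2.32 ± 0.38, adjusted p = 0.00012). Its lower D3 signal was 2.08 times the highest on the other 31 arrays, and whether it passed the filter only through D3 was not checked. Serpinb2, a protease inhibitor of the epidermis, gave 7020.5 and 8496 on the D3 arrays, against 3148, 3679 and 3586 on the P44 arrays (1.16 ± 0.25, adjusted p = 0.0016). The D3 signals of these 3 genes exceeded all P44 signals. Krt16, a keratin of activated epidermis, gave 1165 and 2521 on the D3 arrays, against 216, 412 and 664 on the P44 arrays (2.14 ± 0.66, adjusted p = 0.017), and Sprr1b, a cornified envelope precursor, gave 528 and 2018 on the D3 arrays, against 32.1, 66.7 and 182 on the P44 arrays (3.78 ± 1.11, adjusted p = 0.012), with 1 P44 array under the floor. In both, D3 replicate 2 was the higher D3 array. Without it, their adjusted p was 0.17 and 0.14, and without P44 replicate 1 it was 0.075 and 0.051. Itga5, the fibronectin receptor subunit of migrating cells, gave 236 and 341 on the D3 arrays, against 414, 489 and 425 on the P44 arrays (-0.64 ± 0.20, adjusted p = 0.019), and its adjusted p was 0.32 without D3 replicate 1 and 0.063 without P44 replicate 2.

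Basal keratinocyte genes were higher in 6 of 13 cases (46.2%) and lower in 0. Krt14, with the signals given above, was higher by 0.86 ± 0.15 on the log2 scale (adjusted p = 0.00023). Sfn, 14-3-3 sigma of stratified epithelia, gave 4426 and 6336 on the D3 arrays, against 2123, 2228 and 1712 on the P44 arrays (1.40 ± 0.22, adjusted p = 6.9e-05). Itga3, the laminin-binding integrin alpha 3, gave 2026 and 1646 on the D3 arrays, against 951, 811 and 714 on the P44 arrays (1.16 ± 0.20, adjusted p = 0.00024). Trp63, the master regulator of stratified epithelia, gave 6566 and 7547 on the D3 arrays, against 4044, 4364 and 4201 on the P44 arrays (0.74 ± 0.14, adjusted p = 0.00042). The groups did not overlap for any of the 4. Krt5, the partner of Krt14, gave 40132 and 29815 on the D3 arrays, against 22966, 27288 and 24153 on the P44 arrays (0.48 ± 0.16, adjusted p = 0.022), and its adjusted p was 0.36 without D3 replicate 1, 0.068 without P44 replicate 1 and 0.053 without P44 replicate 3. The 44 epidermal differentiation genes moved both ways, with 5 higher, 7 lower and a median of -0.32, and the count of higher genes was 2 without D3 replicate 1 or P44 replicate 1 and 1 without D3 replicate 2. The count of lower genes was 2 without D3 replicate 1 and 13 without D3 replicate 2. On all arrays the shares higher and lower were 11.4% and 15.9%, near the 13% and 18.4% of all genes. Abca12, the lipid transporter of lamellar granules, gave 369 and 299.9 on the D3 arrays, against 102, 90.6 and 83.7 on the P44 arrays (1.86 ± 0.36, adjusted p = 0.00049). Rptn, repetin, gave 43.5 and 85.7 on the D3 arrays, against 392, 1838 and 1986 on the P44 arrays (-4.21 ± 0.91, adjusted p = 0.0013), and Klk10, a kallikrein, gave 163 and 416 on the D3 arrays, against 819, 2977 and 3454 on the P44 arrays (-2.97 ± 0.58, adjusted p = 0.00057). Both were lowest on D3 replicate 1 and lower on each D3 array than on the female P44 array, itself the lowest of the P44 arrays. Lor, loricrin, gave 24368 and 30612 on the D3 arrays, against 34664, 38075 and 31968 on the P44 arrays (-0.35 ± 0.39, adjusted p = 0.53) and did not pass.

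The follicle's growth signals were read against P44 and also against natural early anagen, the 4 arrays from P23 and P25. P25 replicate 1 was female, and the other natural early anagen arrays came from male mice. Depilation, age and, for most of these arrays, sex differ together between them and D3 and cannot be told apart. The design text places both in early anagen, but how far the follicles had come within that phase was not matched. Across all genes, 16.9% were higher and 25.3% lower in D3 skin than in natural early anagen. Of 13 hedgehog genes, 0 were higher and 5 lower than at P44 (3 lower without D3 replicate 1), while 0 were higher and 11 lower than in natural early anagen (8 without D3 replicate 1). Shh, the ligand made by the hair matrix, gave 174 and 118 on the D3 arrays, against 158, 166 and 147 on the P44 arrays (-0.13 ± 0.41, adjusted p = 0.85), and 2759.8, 3435, 1870.2 and 4406 on the natural early anagen arrays, from which D3 differed by -4.37 ± 0.39 (adjusted p = 4.4e-08). Ptch1, its receptor and target, gave 1274 and 1298 on the D3 arrays, against 1230, 1085 and 1176 on the P44 arrays (0.15 ± 0.24, adjusted p = 0.69), and 7753, 8009.8, 6910.1 and 9747 in natural early anagen (-2.64 ± 0.23, adjusted p = 2.9e-08). Gli1, a target and effector, gave 197 and 194 on the D3 arrays, against 138, 202 and 170.3 on the P44 arrays (0.22 ± 0.32, adjusted p = 0.64), and 1118, 1552, 622 and 1001 in natural early anagen (-2.38 ± 0.30, adjusted p = 2.5e-06). For these 3 genes D3 and P44 signals lay side by side, and all 4 natural early anagen arrays were several times higher. The calls against natural early anagen reported with signals were also made with any one of those 4 arrays or either D3 array left out.

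The 5 hedgehog genes lower than at P44 act in releasing, receiving or transducing the ligand. Boc, a co-receptor, gave 442 and 382 on the D3 arrays, against 678, 717 and 744 on the P44 arrays (-0.79 ± 0.16, adjusted p = 0.00068). Disp1, which releases the ligand, gave 130.3 and 172 on the D3 arrays, against 318, 473 and 347 on the P44 arrays (-1.32 ± 0.28, adjusted p = 0.0011). Gli3, mainly a repressor, gave 477 and 478 on the D3 arrays, against 658, 756 and 752 on the P44 arrays (-0.59 ± 0.16, adjusted p = 0.0063). Both D3 arrays were below every P44 array for each of them. Gli2 (-0.58 ± 0.16, adjusted p = 0.0076), the main activator, and Hhip (-1.04 ± 0.34, adjusted p = 0.023), an inhibitor that was under the floor on 1 D3 array, also passed, and without D3 replicate 1 they were at adjusted p = 0.11 and 0.12. Hhip also lost its call without D3 replicate 2 (0.083), P44 replicate 1 (0.056) and P44 replicate 2 (0.096). The members that did not pass against P44 were Cdon (-0.31 ± 0.27, adjusted p = 0.42), Gas1 (0.24 ± 0.29, adjusted p = 0.56), Smo (0.06 ± 0.15, adjusted p = 0.79), Sufu (-0.13 ± 0.13, adjusted p = 0.47) and Hhat (-0.63 ± 0.39, adjusted p = 0.23), besides Shh, Ptch1 and Gli1.

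Among 39 WNT genes, 4 were higher and 12 lower than at P44, with 5 higher and 24 lower than in natural early anagen (3 higher without D3 replicate 1 or without D3 replicate 2). The shares higher and lower than at P44 were 10.3% and 30.8%, against 13% and 18.4% of all genes. Wnt10a, a ligand of hair follicles and epidermis, gave 1320 and 1272 on the D3 arrays, against 558, 538 and 524 on the P44 arrays (1.26 ± 0.16, adjusted p = 7.2e-06) and 487, 615, 467 and 559 in natural early anagen (1.29 ± 0.15, adjusted p = 9.2e-07). Wnt4 gave 1989 and 1688 on the D3 arrays, against 958, 746 and 846 on the P44 arrays (1.12 ± 0.16, adjusted p = 2.7e-05). Both ligands were higher on each D3 array than on any P44 array. Lef1, the transcription factor through which WNT signals act in the hair matrix, gave 85 and 124 on the D3 arrays, against 112, 69.8 and 92.8 on the P44 arrays (0.19 ± 0.34, adjusted p = 0.7) and 559.7, 900.2, 603 and 997 in natural early anagen (-2.85 ± 0.32, adjusted p = 7.9e-07). Axin2 (0.16 ± 0.17, adjusted p = 0.51), a feedback target, did not pass against P44. Sfrp2, a secreted inhibitor made by fibroblasts, gave 191 and 197 on the D3 arrays, against 1744, 2274 and 2307 on the P44 arrays (-3.43 ± 0.51, adjusted p = 4.9e-05). Fzd1, a receptor, gave 1141 and 1463 on the D3 arrays, against 3554, 2940.3 and 3397 on the P44 arrays (-1.35 ± 0.17, adjusted p = 7.7e-06). Dkk3, a member of the Dickkopf family, gave 269 and 354 on the D3 arrays, against 687, 904 and 994 on the P44 arrays (-1.47 ± 0.24, adjusted p = 0.00011). These 3 genes were low on both D3 arrays, and the groups did not overlap.

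Of 33 BMP and TGF-beta genes, 1 was higher and 14 lower than at P44 (3.03% and 42.4%, against 13% and 18.4% of all genes). The count of higher genes was 0 without D3 replicate 1. The higher one was Grem1 (1.33 ± 0.35, adjusted p = 0.0058), a secreted BMP antagonist named after its values were seen. Bmp6, a ligand that holds bulge cells at rest, gave 142 and 109 on the D3 arrays, against 316, 265 and 315 on the P44 arrays (-1.26 ± 0.24, adjusted p = 0.00041). Id2, a direct BMP target, gave 826 and 1044 on the D3 arrays, against 1918, 1894 and 2142 on the P44 arrays (-1.09 ± 0.19, adjusted p = 0.00021). Tgfbr2, the type II TGF-beta receptor, gave 2674 and 4425 on the D3 arrays, against 9109, 8263 and 7536 on the P44 arrays (-1.27 ± 0.22, adjusted p = 0.0002). Each was lower on both D3 arrays than on any P44 array. Fstl1 (-2.02 ± 0.25, adjusted p = 6.3e-06), Bmp1 (-1.43 ± 0.21, adjusted p = 4.2e-05) and Ltbp2 (-1.66 ± 0.30, adjusted p = 0.00031), a secreted glycoprotein, a procollagen proteinase and a matrix protein related to the TGF-beta binding proteins, were also lower. Of the 28 FGF and EGF genes, 2 were higher and 7 lower, and 2 were lower without D3 replicate 1 and 1 higher without D3 replicate 2. On all arrays the shares higher and lower were 7.14% and 25%, against 13% and 18.4% of all genes. Spry2, a feedback inhibitor of receptor tyrosine kinases, gave 802 and 835 on the D3 arrays, against 384, 502 and 538 on the P44 arrays (0.80 ± 0.17, adjusted p = 0.0012), and Etv4, an ETS factor induced by FGF signals, gave 128 and 187 on the D3 arrays, against 10.3, 20.6 and 12.1 on the P44 arrays. All P44 signals of Etv4 were under the floor, so it was at least 4.46-fold higher (adjusted p = 0.005, and 0.054 without D3 replicate 2). Fgf18, a ligand of resting follicles, gave 71.8 and 105 on the D3 arrays, against 282, 342 and 273 on the P44 arrays (-1.78 ± 0.47, adjusted p = 0.0063), with adjusted p = 0.092 without D3 replicate 1. Egfr gave 1485 and 1617 on the D3 arrays, against 2558, 2575 and 2229.5 on the P44 arrays (-0.66 ± 0.13, adjusted p = 0.00083), both D3 arrays being the lower.

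**Figure D3:**
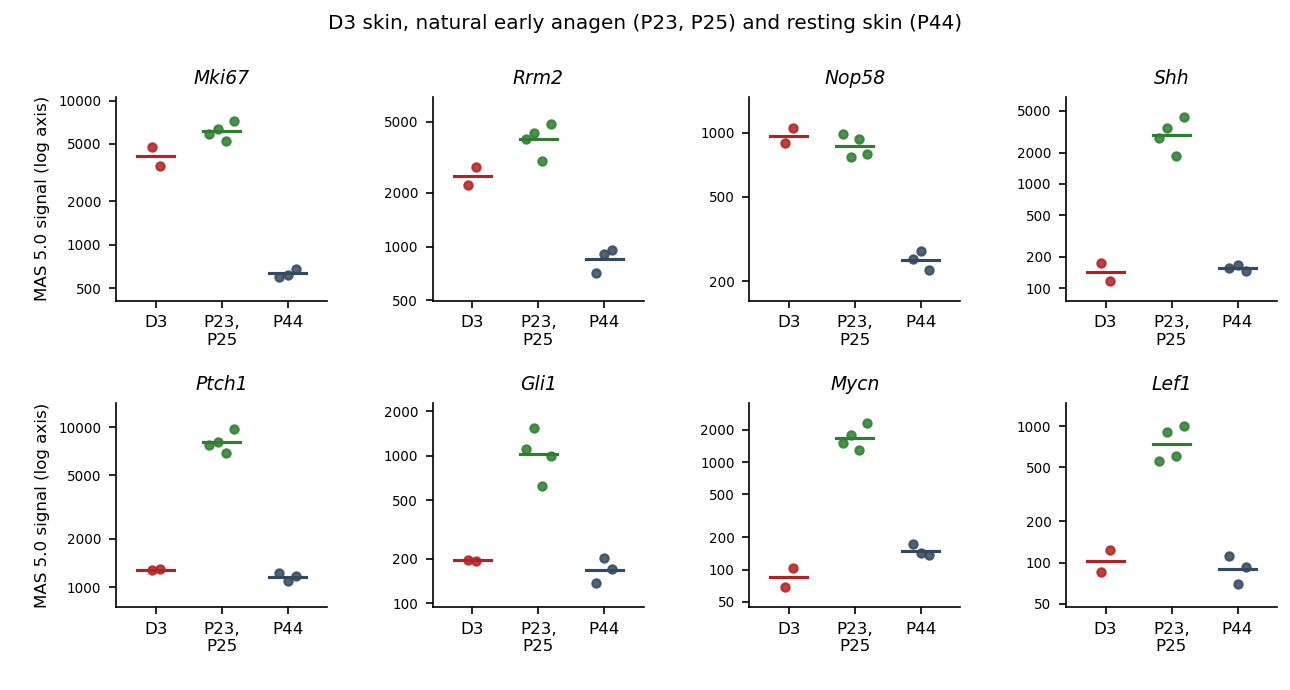
Signals of 8 genes on the 2 D3 arrays (left), the 4 natural early anagen arrays from P23 and P25 (middle) and the 3 P44 arrays (right); the vertical axis is the MAS 5.0 signal on a log scale, points are arrays and bars are geometric means. Mki67, Rrm2 and Nop58 are higher at D3 than at P44, whereas Shh, Ptch1, Gli1, Mycn and Lef1 are high in natural early anagen alone.

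Against natural early anagen, many division genes were lower in D3 skin. Of the 43 mitosis genes, 0 were higher and 18 lower than in natural early anagen, with a median of -0.60, and 7 were lower without D3 replicate 2. Mki67 gave 5871, 6312, 5236 and 7232 on the natural early anagen arrays (-0.58 ± 0.27, adjusted p = 0.085). Of the 40 replication genes 28 were lower and 1 higher, and 13 were lower without D3 replicate 1. The 1 higher replication gene, the flap endonuclease gene Fen1, named after its values were seen, lost its call without D3 replicate 1, D3 replicate 2, P23 replicate 1 or P25 replicate 2. Mcm7 gave 6260.3, 6512, 5763 and 7325 in natural early anagen (-0.84 ± 0.17, adjusted p = 0.00048), and every one of those arrays was above both D3 arrays. Mycn, a hair matrix gene, gave 1494, 1768, 1290.1 and 2288 (-4.30 ± 0.27, adjusted p = 5.2e-10).

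Stem cell and germ genes did not move as 1 group. Of 28 bulge and hair germ genes, 5 were higher and 13 lower than at P44 (17.9% and 46.4%, against 13% and 18.4% of all genes). There were 3 higher without D3 replicate 1, and leaving out 1 array gave 10 to 13 lower. Cd34, a bulge marker in the mouse that dermal and vessel cells also express, gave 1227 and 2613 on the D3 arrays, against 6479.5, 11114 and 8662 on the P44 arrays (-2.25 ± 0.30, adjusted p = 1.4e-05). Lhx2, a transcription factor of bulge and germ, gave 550.2 and 464 on the D3 arrays, against 1054, 1430.4 and 1561 on the P44 arrays (-1.40 ± 0.19, adjusted p = 2.1e-05) and 3733, 3825, 3534 and 4385 in natural early anagen (-2.93 ± 0.18, adjusted p = 4.6e-10). Both genes were lower on each D3 array than on any P44 array. Cdh3, P-cadherin of the hair germ, gave 608 and 784 on the D3 arrays, against 369, 370.2 and 279 on the P44 arrays (1.04 ± 0.20, adjusted p = 0.00051), and Lrig1, a marker of the upper follicle, gave 2009 and 2569 on the D3 arrays, against 965, 1468 and 1230.2 on the P44 arrays (0.92 ± 0.18, adjusted p = 0.00061). These were high on both D3 arrays. The 5 higher genes include Krt19, a keratin of bulge and glands that the mammary list below also holds. Krt15, a bulge keratin that basal cells share, did not pass (-0.27 ± 0.22, adjusted p = 0.37). Among 24 dermal papilla genes 0 were higher and 7 lower than at P44, while 1 was higher and 15 lower than in natural early anagen (0 higher without D3 replicate 1, either P23 array or P25 replicate 1), and 2 were lower than at P44 without D3 replicate 1 and 4 without P44 replicate 1. Frem1, a basement membrane protein, gave 21.2 and 29.6 on the D3 arrays, against 71.8, 151 and 139 on the P44 arrays, and since both D3 signals were under the floor it was at least 3.31-fold lower (adjusted p = 0.00036). Vcan, versican, gave 188 and 338 on the D3 arrays, against 440, 779 and 762 on the P44 arrays (-1.34 ± 0.37, adjusted p = 0.0088, and adjusted p = 0.18 without D3 replicate 1) and 3025, 2813, 2461 and 4431 in natural early anagen (-3.62 ± 0.35, adjusted p = 1.3e-07). Sox2 (0.25 ± 0.31, adjusted p = 0.58), another papilla marker, did not pass against P44, and Corin was under the floor on both D3 arrays and on 2 P44 arrays.

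Inner root sheath and hair shaft genes, which only a growing follicle makes in quantity, held members that were lower at D3 than at P44 and none that were higher. Inner root sheath genes were lower in 11 of 20 cases and higher in 0, with a median of -1.34, and the count was 6 without D3 replicate 1 or P44 replicate 2 and 7 without D3 replicate 2 or P44 replicate 1. Krt25, a type I keratin of the sheath, gave 34.9 and 33.6 on the D3 arrays, against 1217, 912 and 217 on the P44 arrays (-4.16 ± 0.44, adjusted p = 1.2e-06), with 1 D3 array under the floor. Tchh, trichohyalin, gave 58.7 and 79.5 on the D3 arrays, against 1630.3, 1480.4 and 392 on the P44 arrays (-3.84 ± 0.48, adjusted p = 7.2e-06). Krt71, a type II keratin of the sheath, gave 81.8 and 71 on the D3 arrays, against 871, 971 and 269 on the P44 arrays (-3.0 ± 0.48, adjusted p = 0.0001). Among the P44 arrays replicate 3 was the lowest for all 3 genes, and it was still above both D3 arrays. Natural early anagen stood far higher, with 9669, 15859, 8813 and 21804 for Krt25 (-8.56 ± 0.41, adjusted p = 2e-11). Hair shaft genes were lower in 9 of 30 cases (30% against 18.4% of all genes) and higher in 0. The count was 4 without D3 replicate 1 or P44 replicate 1 and 5 without D3 replicate 2 or P44 replicate 2. Krtap8-1, a keratin-associated protein of the shaft, gave 28.4 and 30.4 on the D3 arrays, against 1772, 1309 and 331 on the P44 arrays, and was at least 26.5-fold lower with both D3 signals under the floor (adjusted p = 0.00028). Hoxc13, the homeobox factor that drives hair keratin genes, gave 78.2 and 67 on the D3 arrays, against 352, 272 and 274 on the P44 arrays (-2.04 ± 0.24, adjusted p = 4.4e-06). Krtap15 (4.8 and 31.6 on the D3 arrays, against 619.8, 567 and 122 on the P44 arrays) was likewise at least 10.1-fold lower (adjusted p = 0.00073). Krtap22-2, another keratin-associated protein, gave 22.8 and 10.5 on the D3 arrays, against 1028, 416 and 141 on the P44 arrays and was at least 11.3-fold lower (adjusted p = 0.0033). Gm10228, a gene model without a name, gave 20.6 and 18.8 on the D3 arrays, against 846, 487 and 123 on the P44 arrays and was at least 10.7-fold lower (adjusted p = 0.0037). For both, P44 replicate 3 was the lowest P44 array. Prr9, a proline-rich protein, gave 50.6 and 26 on the D3 arrays, against 1374, 1108 and 346 on the P44 arrays (-4.27 ± 0.60, adjusted p = 2.3e-05), with 1 D3 array under the floor. Krt35 (-0.82 ± 0.37, adjusted p = 0.093, with 1 D3 array under the floor), Krt31 (-1.49 ± 0.83, adjusted p = 0.18) and Msx2 (0.20 ± 0.27, adjusted p = 0.61), an early and a late shaft keratin and a matrix transcription factor, did not pass.

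Of 18 pigment cell genes 4 were lower and 0 higher than at P44, and 2 were lower without D3 replicate 1. The share lower was 22.2%, near the 18.4% of all genes. Mitf, the master regulator of melanocytes, which the mast cell lineage also uses, gave 726 and 889 on the D3 arrays, against 2145, 1739 and 1709 on the P44 arrays (-1.21 ± 0.20, adjusted p = 0.00016). Mlana, a melanosome protein, gave 13.8 and 13.9 on the D3 arrays, against 121, 380.2 and 291 on the P44 arrays, at least 6.86-fold lower with both D3 arrays under the floor (adjusted p = 0.0027). Both genes separated the groups. Ednrb (-1.50 ± 0.39, adjusted p = 0.0056) and Gpnmb (-1.32 ± 0.50, adjusted p = 0.048) passed as well, at adjusted p = 0.49 and 0.34 without D3 replicate 1, and Gpnmb at 0.055 without D3 replicate 2, 0.18 without P44 replicate 2 and 0.12 without P44 replicate 3.

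**Figure D4:**
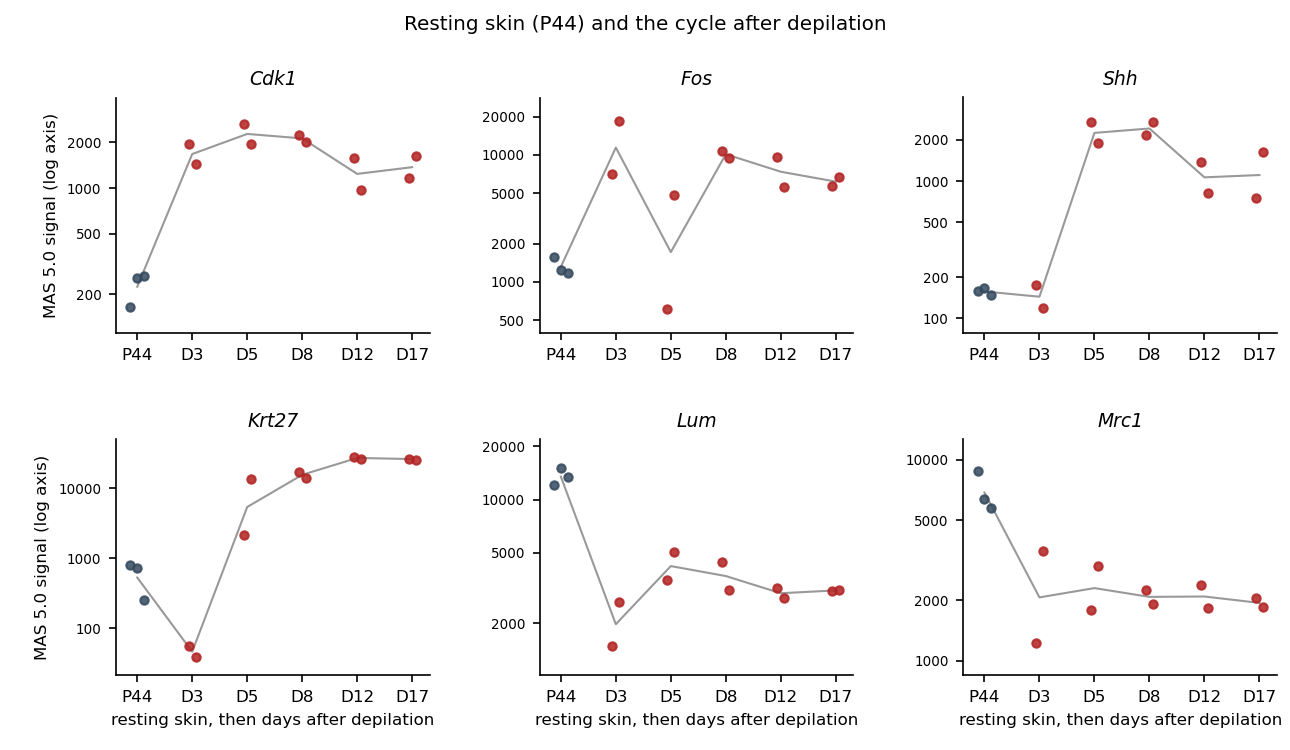
Signals of 6 genes at P44 and then at 3, 5, 8, 12 and 17 days after depilation (time points evenly spaced on the horizontal axis); the vertical axis is the MAS 5.0 signal on a log scale, points are arrays and lines join geometric means. Cdk1 is already high at D3, Shh and Krt27 come up after D3, Fos is highest at D3, and Lum stays below its P44 level.

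The later arrays of the depilation series, for which no test was run, show when the growth genes came up. At D5 Shh gave 2671 and 1881 and Krt27 gave 2172 and 13560. Both D5 arrays were above all D3 and P44 arrays for the hedgehog ligand and the sheath keratin. Cdk1 gave 2648 and 1954 at D5, close to its D3 level. Lum gave 3530 and 5028 at D5 and 3049 and 3091 at D17, below every P44 array.

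Genes of the dermis were lower in D3 skin. Of 29 dermal fibroblast genes, 24 were lower and 0 higher (82.8% against 18.4% of all genes lower), with a median of -1.41, and leaving out 1 array gave 18 to 24. Lum, lumican, a collagen-binding proteoglycan, gave 1490.1 and 2624 on the D3 arrays, against 12121, 15029 and 13500 on the P44 arrays (-2.77 ± 0.29, adjusted p = 1.1e-06). Col1a2, the second chain of type I collagen, gave 11157 and 15807 on the D3 arrays, against 33847, 52829.5 and 42149.7 on the P44 arrays (-1.67 ± 0.22, adjusted p = 1.6e-05). Col14a1, a collagen that coats fibrils, gave 569.9 and 1059 on the D3 arrays, against 4422, 3345 and 4050.2 on the P44 arrays (-2.33 ± 0.27, adjusted p = 3.2e-06). The lowest P44 array was more than 2 times the highest D3 array for each. Mfap4, a protein of elastic microfibrils, had the largest fall of all 13116 genes, with 31.8 and 119 on the D3 arrays, against 2101, 3554 and 4651 on the P44 arrays (-5.67 ± 0.53, adjusted p = 4.2e-07) and 1 D3 array under the floor. Ogn (-2.14 ± 0.28, adjusted p = 1.4e-05), osteoglycin, and Fbln1 (-1.42 ± 0.14, adjusted p = 8.9e-07), fibulin 1, fell too. Other genes among the 15 largest falls were Cpz (-5.12 ± 1.02, adjusted p = 0.00067), a carboxypeptidase of the matrix, with 1 D3 array under the floor, Tnmd (-4.45 ± 0.60, adjusted p = 1.7e-05), tenomodulin, and Hamp2 (-4.97 ± 0.82, adjusted p = 0.00013), a hepcidin. Rnase2b, a ribonuclease of the eosinophil-associated family, gave 73.6 and 160.3 on the D3 arrays, against 1739, 3675 and 3364 on the P44 arrays (-4.68 ± 0.46, adjusted p = 6.7e-07). The intermediate filament gene Vim, the 1 called gene of 9 markers that the study used for skin composition, common to mesenchymal cells and leukocytes, gave 7536 and 15207 on the D3 arrays, against 19948, 21592 and 21312 on the P44 arrays (-0.97 ± 0.22, adjusted p = 0.0018), at adjusted p = 0.15 without D3 replicate 1. The others were the keratinocyte genes Krt1 (0.0 ± 0.52, adjusted p = 1), Krt10 (-0.46 ± 0.42, adjusted p = 0.42), Flg (-1.17 ± 0.62, adjusted p = 0.15) and Lor, the muscle-associated Des (0.68 ± 0.35, adjusted p = 0.15), Mef2a (-0.19 ± 0.17, adjusted p = 0.43) and Mef2c (0.08 ± 0.35, adjusted p = 0.88), and the fibroblast-associated S100a4 (-0.52 ± 0.36, adjusted p = 0.28). Other probe sets were called higher for Mef2a (1) and Mef2c (2). Each marker was read here on its brightest kept probe set, which need not be the one that the study used.

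Wound matrix genes were mixed, with 4 of 34 higher and 12 lower, and 8 lower without D3 replicate 1. Fn1, fibronectin, gave 1187 and 2413 on the D3 arrays, against 12883, 13468 and 11875 on the P44 arrays (-2.91 ± 0.32, adjusted p = 2.2e-06). Timp3, an inhibitor of metalloproteinases, gave 1292 and 1376 on the D3 arrays, against 6961, 6072 and 6394 on the P44 arrays (-2.28 ± 0.24, adjusted p = 1.5e-06). Mmp2, a gelatinase of fibroblasts, gave 1349 and 3265 on the D3 arrays, against 9171, 15342 and 12076 on the P44 arrays (-2.51 ± 0.42, adjusted p = 0.00016). All 3 were low on both D3 arrays. Adam8, a membrane protease, gave 982 and 1132 on the D3 arrays, against 540.3, 394 and 445 on the P44 arrays (1.21 ± 0.23, adjusted p = 0.00046), high on both. Endothelial genes were lower in 7 of 22 cases and higher in 0, and 2 were lower without D3 replicate 1. Ramp2, the partner of the adrenomedullin receptor in vessels, gave 737 and 872 on the D3 arrays, against 1829.5, 1459 and 1517 on the P44 arrays (-0.99 ± 0.19, adjusted p = 0.00054), and Pecam1 did not pass (-0.55 ± 0.26, adjusted p = 0.12). Of 24 adipocyte genes 2 were higher, the glucose transporter Slc2a4 (1.32 ± 0.35, adjusted p = 0.0062), which muscle also makes, and the glycerol channel Aqp7 (1.67 ± 0.54, adjusted p = 0.021), and Mest (-1.04 ± 0.38, adjusted p = 0.04) was lower. Both counts were 0 without D3 replicate 1, and they were 4 higher and 0 lower without D3 replicate 2, 1 and 0 without P44 replicate 1, and 1 and 2 without P44 replicate 2. In the 22 sebaceous gland genes 0 were higher and 2 lower, and Scd3, a stearoyl-CoA desaturase of the gland, gave 239 and 446 on the D3 arrays, against 1185, 3583 and 2863 on the P44 arrays (-2.82 ± 0.46, adjusted p = 0.00011), its female P44 array being the lowest of the 3.

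Macrophage, antigen presentation, T cell and mast cell genes held members that were lower at D3 and none that were higher, and most of these calls were lost without D3 replicate 1. Of 30 macrophage genes, 18 were lower and 0 higher, with a median of -1.27, and 2 were lower without D3 replicate 1. Their summed signal was 30775 and 75708 on the D3 arrays, against 165583, 116574 and 101474 on the P44 arrays. Folr2, a folate receptor of resident macrophages, gave 302 and 996 on the D3 arrays, against 4583, 2798 and 2287 on the P44 arrays (-2.49 ± 0.47, adjusted p = 0.00045). Arg1, arginase 1, gave 683 and 499 on the D3 arrays, against 2019, 1920 and 1969 on the P44 arrays (-1.75 ± 0.32, adjusted p = 0.00032). These 2 genes kept their call without any one array. Mrc1, the mannose receptor, gave 1217 and 3495 on the D3 arrays, against 8789.8, 6359.7 and 5762 on the P44 arrays (-1.73 ± 0.38, adjusted p = 0.0016), and C1qc, a complement subunit, gave 791 and 3122 on the D3 arrays, against 8078, 6314 and 4909.8 on the P44 arrays (-2.0 ± 0.46, adjusted p = 0.0023). Without D3 replicate 1, Mrc1 was at adjusted p = 0.11 and C1qc at 0.16. Antigen presentation genes were lower in 8 of 15 cases and higher in 0, and 0 were lower without D3 replicate 1 and 4 without P44 replicate 1. H2-Ab1, of the MHC class II, gave 1398 and 3584 on the D3 arrays, against 9365, 6245 and 6103 on the P44 arrays (-1.66 ± 0.41, adjusted p = 0.0036), at adjusted p = 0.16 without D3 replicate 1.

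Of 13 T cell genes 4 were lower (30.8%, against 18.4% of all genes) and 0 higher, and 1 was lower without D3 replicate 1. Gzma, granzyme A of cytotoxic cells, gave 43.7 and 60.4 on the D3 arrays, against 634, 440.1 and 276 on the P44 arrays (-3.05 ± 0.53, adjusted p = 0.00019). Mast cell genes were lower in 5 of 8 cases and higher in 0, and 2 were lower without D3 replicate 1. Mcpt4, a chymase of connective tissue mast cells, gave 17.3 and 356 on the D3 arrays, against 1144, 1362 and 1183 on the P44 arrays (-3.46 ± 0.56, adjusted p = 0.00011), and Cpa3, their carboxypeptidase, gave 147 and 593 on the D3 arrays, against 1586, 1557 and 1652 on the P44 arrays (-2.43 ± 0.43, adjusted p = 0.00025). D3 replicate 1 was the lowest array for these 3 genes, and under the floor for Mcpt4, and D3 replicate 2 was also below every P44 array. Interferon-induced genes were lower in 10 of 24 cases and higher in 0, with a median of -0.94, and 3 were lower without D3 replicate 1, and 19 with sex as a covariate. Stat2, a subunit of the interferon-activated complex ISGF3, gave 171 and 231 on the D3 arrays, against 664, 646 and 476 on the P44 arrays (-1.57 ± 0.23, adjusted p = 3.8e-05). Neutrophil genes were higher in 2 of 10 cases (20%, against 13% of all genes) and in 0 without D3 replicate 1. They were Stfa3, a stefin, with 4738 and 3805 on the D3 arrays, against 227, 1035 and 1031 on the P44 arrays (2.77 ± 0.71, adjusted p = 0.0051, and 0.056 without D3 replicate 1), and Ltf, lactoferrin, given with the glandular genes below.

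Of 24 chemokines and cytokines 1 was higher and 6 lower, and 0 were higher and 2 lower without D3 replicate 1. On all arrays the shares higher and lower were 4.17% and 25%, against 13% and 18.4% of all genes. For the antimicrobial genes below they were 13% and 21.7%. Ccl8, a chemokine of skin macrophages, gave 767 and 3653 on the D3 arrays, against 12482, 13548 and 9888 on the P44 arrays (-2.83 ± 0.46, adjusted p = 0.00011). Cxcl12, made by fibroblasts, gave 1327 and 2560.2 on the D3 arrays, against 5928, 5662 and 5894 on the P44 arrays (-1.66 ± 0.27, adjusted p = 0.00013). Both fell on each D3 array below every P44 array. Cxcl2, which attracts neutrophils, gave 838 and 228 on the D3 arrays, against 56.2, 140.2 and 254 on the P44 arrays (1.79 ± 0.43, adjusted p = 0.0028); its groups overlapped, and without D3 replicate 1 the adjusted p was 0.2. Of 23 antimicrobial genes 3 were higher and 5 lower, and without D3 replicate 1 the counts were 1 and 0. Lyz2, lysozyme of macrophages, gave 1849 and 8244 on the D3 arrays, against 23081, 16799 and 14069.6 on the P44 arrays (-2.17 ± 0.49, adjusted p = 0.002, and 0.15 without D3 replicate 1).

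Clock genes are repressors and activators of a daily loop whose levels follow the time of day. Of 17, 1 was higher and 5 lower than at P44 (3 lower without D3 replicate 1), with a median of -0.60, while 5 were higher and 0 lower than in natural early anagen (1 without D3 replicate 1, 2 without D3 replicate 2 and 3 without P23 replicate 1 or either P25 array). The shares higher and lower than at P44 were 5.88% and 29.4%, against 13% and 18.4% of all genes. Per3, a period gene, gave 283 and 302 on the D3 arrays, against 1195, 1038 and 1030.1 on the P44 arrays (-1.89 ± 0.34, adjusted p = 0.0003) and 276, 196, 264 and 235 in natural early anagen. Ciart, a repressor of the CLOCK and BMAL1 pair, gave 161 and 144 on the D3 arrays, against 322, 563 and 548 on the P44 arrays (-1.60 ± 0.35, adjusted p = 0.0014). Tef, an output factor of the PAR bZIP family, gave 2764 and 1884 on the D3 arrays, against 5512, 5065 and 5653 on the P44 arrays (-1.24 ± 0.27, adjusted p = 0.0014), and another Tef probe set was called in the opposite direction. The D3 arrays were below all P44 arrays for the 3 genes. Per2 gave 224 and 245 on the D3 arrays, against 1215, 817 and 826 on the P44 arrays (-2.0 ± 0.53, adjusted p = 0.006), at adjusted p = 0.056 without D3 replicate 1. Arntl, which encodes BMAL1, gave 506 and 724 on the D3 arrays, against 311, 328 and 306 on the P44 arrays (0.94 ± 0.23, adjusted p = 0.0032), the one clock gene that was higher, at adjusted p = 0.075 without D3 replicate 2, and 2 clock genes were higher without P44 replicate 2. Cry2 (-0.60 ± 0.20, adjusted p = 0.022) lost its call without D3 replicate 1 (adjusted p = 0.086), D3 replicate 2 (0.1) or P44 replicate 2 (0.056). Dbp, a strong output gene, gave 2069.8 and 1440 on the D3 arrays, against 6522, 6657 and 7013 on the P44 arrays and did not pass (-1.96 ± 0.80, adjusted p = 0.065), although its groups did not overlap. The others that did not pass were Per1 (-0.85 ± 0.33, adjusted p = 0.052), Nr1d1 (-0.89 ± 0.60, adjusted p = 0.28), Nr1d2 (-1.0 ± 0.48, adjusted p = 0.11), Clock (0.36 ± 0.18, adjusted p = 0.13), Cry1 (-0.38 ± 0.41, adjusted p = 0.52), Npas2 (1.29 ± 0.58, adjusted p = 0.093, with 1 P44 array under the floor), Hlf (0.42 ± 0.24, adjusted p = 0.19), Rora (-0.35 ± 0.22, adjusted p = 0.23), Bhlhe40 (-0.24 ± 0.20, adjusted p = 0.37) and Nfil3 (0.24 ± 0.30, adjusted p = 0.58). Another probe set was called lower for Nr1d2 and for Hlf, and 1 of the 8 Rora probe sets was called higher. All samples were taken in the afternoon, and the exact hour of each mouse was not given in the sources used here.

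The Ciart promoter is shown because it holds 3 copies of the E-box CACGTG, the site of CLOCK and BMAL1, in capitals, at 116, 58 and 44 bases before the RefSeq start (chr3:95882229-95882478, minus strand, GRCm38.p6, 5′ to 3′). The letters read the same on both strands, and 4 of the 15 clock genes with a promoter held them (26.7%), against 8.35% of tested genes.
Ciart: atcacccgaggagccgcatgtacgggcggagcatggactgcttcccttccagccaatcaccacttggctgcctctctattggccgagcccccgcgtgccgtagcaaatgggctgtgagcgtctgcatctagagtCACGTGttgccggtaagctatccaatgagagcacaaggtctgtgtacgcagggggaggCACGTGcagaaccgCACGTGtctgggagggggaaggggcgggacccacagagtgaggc

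Several of the largest rises were genes known from simple and glandular epithelium. Dmbt1, a secreted mucin-like glycoprotein, had the largest rise of all genes, with 3868 and 1302 on the D3 arrays, against 505, 21.2 and 2.6 on the P44 arrays (4.73 ± 0.83, adjusted p = 0.00023) and 2 P44 arrays under the floor. Krt18, a keratin of simple epithelium, gave 4526 and 1382 on the D3 arrays, against 1001, 206 and 136 on the P44 arrays (3.04 ± 0.68, adjusted p = 0.0018). Wfdc2, a secreted protein of glands, gave 1184 and 355 on the D3 arrays, against 221, 10.4 and 64.5 on the P44 arrays (3.04 ± 0.69, adjusted p = 0.0021), with 1 P44 array under the floor. In each case the female P44 array, replicate 1, was the highest of the 3 P44 arrays. Foxa1, a factor of glandular cells, gave 1014 and 354 on the D3 arrays, against 328, 6.8 and 35 on the P44 arrays (3.03 ± 0.70, adjusted p = 0.0024), with 1 P44 array under the floor, and Krt8, the partner of Krt18, gave 2609 and 705 on the D3 arrays, against 588, 96.1 and 106 on the P44 arrays (2.90 ± 0.67, adjusted p = 0.0024). Lcn2, lipocalin 2, gave 1299.5 and 1143 on the D3 arrays, against 341, 73.2 and 133 on the P44 arrays (3.03 ± 0.64, adjusted p = 0.0011), and Ltf gave 645 and 202 on the D3 arrays, against 251, 2.8 and 7.8 on the P44 arrays (2.43 ± 0.71, adjusted p = 0.012), with overlapping groups and 2 P44 arrays under the floor. Without D3 replicate 1 the adjusted p was 0.076 for Krt18, 0.083 for Wfdc2, 0.079 for Foxa1, 0.1 for Krt8 and 0.23 for Ltf, and Ltf was at 0.059 without P44 replicate 2 or 3.

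The list of mammary epithelium genes was drawn up after these values were seen. It shares Krt19, Lcn2 and Ltf with the lists above. Of its 16 measured genes, 12 were higher (75% against 13% of all genes) and 1 lower. Without D3 replicate 1, 2 were higher and 0 lower, without P44 replicate 3, 7 were higher, and without D3 replicate 2 or P44 replicate 1, 0 were lower. The summed signal was 24347 and 8804 on the D3 arrays, against 8733, 3192 and 3208 on the P44 arrays. The milk protein gene Csn3 passed with overlapping groups and 1 P44 array under the floor (2.51 ± 0.72, adjusted p = 0.01), whereas the mammary regulators Elf5 (0.86 ± 0.50, adjusted p = 0.2) and Pgr (1.67 ± 0.95, adjusted p = 0.19, with 1 P44 array under the floor) did not. The 1 lower gene was Esr1, an estrogen receptor, with 958 and 936 on the D3 arrays, against 2346, 1596 and 1773 on the P44 arrays. Its difference was -0.99, and it lost its call in the cases given above with 0 lower. Over all 33 arrays, Krt18 ran between 9.9 and 4526 in the 20 female mice (median 533) and between 12.7 and 543 in the 13 male mice (median 206), and Dmbt1 between 1.7 and 3868 in female mice (median 48) and between 2.6 and 47.4 in male mice (median 6.7). Krt18 also differed along the natural cycle, with 12.7 and 16.5 in the male mice at P23, 461 in the male mouse at P29 and 469.9 and 543 in the male mice at P37. In a fit of the female arrays alone, with 1 P44 array, the adjusted p was 0.2 for Krt18, 0.2 for Dmbt1, 0.3 for Wfdc2, 0.56 for Foxa1 and 0.16 for Lcn2. The part of the sex of the mice, or of mammary tissue in the excised skin, in these rises was not tested. Xist and the Y-linked Kdm5d, Eif2s3y and Uty separated the labelled sexes on every array, with Xist at 8429 to 15045 in female and 33.5 to 561 in male mice.

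**Figure D5:**
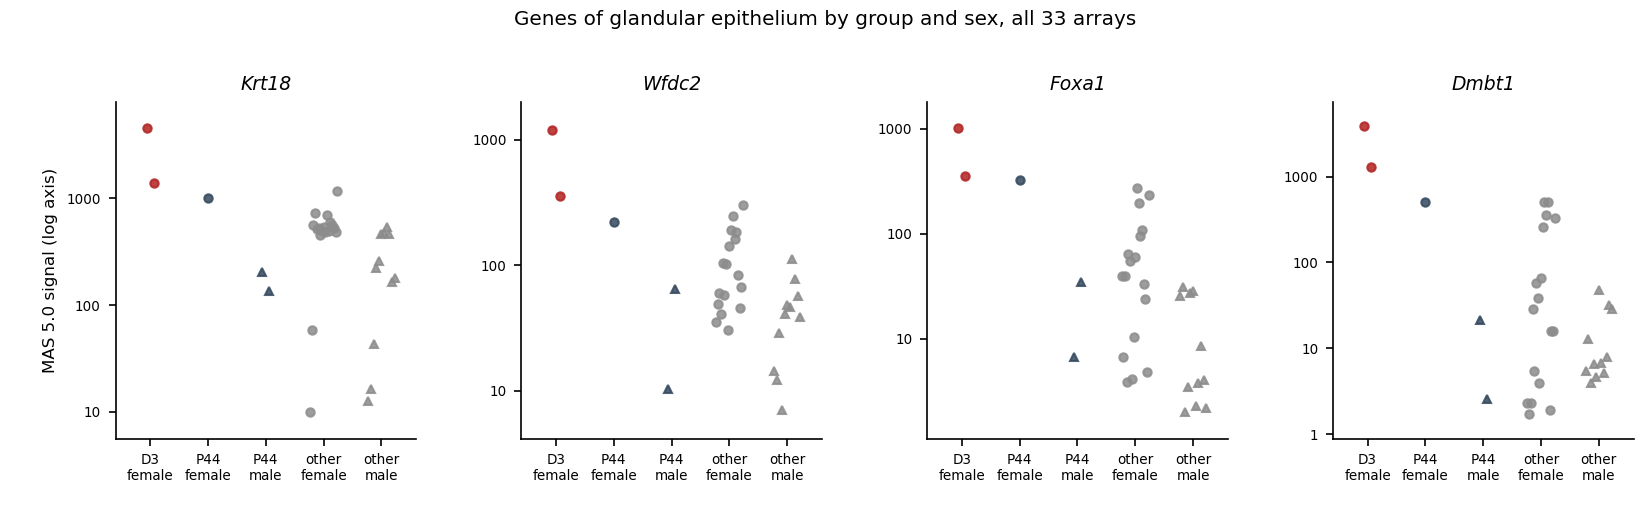
Signals of Krt18, Wfdc2, Foxa1 and Dmbt1 on the 33 arrays, in the order D3 (both female), P44 female, P44 male, other female and other male; the vertical axis is the MAS 5.0 signal on a log scale, circles are female and triangles male mice. In every panel D3 replicate 1 is the highest array, and the 1 female P44 array lies above both male P44 arrays.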

How the data were processed

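RNA of dorsal skin from 33 mice was hybridised to 33 Affymetrix Mouse Genome 430 2.0 arrays, 2 of them from D3 and 3 from P44. The deposited intensity values are signals that the authors made with MAS 5.0 (version not given in the sources used here), which subtracts background, summarises the probes of a set and scales each array, and the trimmed mean was 497 to 498 on every array. The deposited signals were used without further scaling, so the values are relative within an array and show no change that affects all transcripts. Signals under 34.6, the 25th percentile of the table, were set to that floor before taking log2, which makes a fold against a group wholly under it a lower bound. Such values made up 1.71 to 2.94% of the kept probe sets on the 5 arrays.

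A probe set was retained if 2 or more arrays had it above their median, which left 27793 of 45037, and 251 were kept only through the D3 arrays. Log2 values were fitted with limma 3.58.1 in R 4.3.3, with 1 mean for each of the 14 time points and 19 residual degrees of freedom, and Benjamini-Hochberg adjusted p under 0.05 was the threshold. The contrasts were D3 minus P44 and D3 minus the mean of P23 and P25. The fit was tested on simulated data. The number of arrays limits the precision. The labels call the arrays biological replicates, 1 mouse each.

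Gene symbols came from the platform annotation: 34945 probe sets had 1 symbol, 932 several and 9160 none, and those with several were not named. Each gene was represented by the kept probe set with the highest mean log2 signal. Of the genes taken by the naming rule, 223 were called, and of 95 of these with several kept probe sets, 46 had the same call on all and 3 an opposite call on another. Of the 43 not called, 9 had another probe set that was called. With a filter on at least 3 arrays, 264 of the 266 genes of the rule and 221 of the 223 calls remained. Which genes had passed the filter only through the D3 arrays was not checked gene by gene. The 41 gene lists held 1114 entries, of which 978 were measured, and the members and lists were chosen with earlier results of these data known. By the naming rule the genes were the 15 largest rises and falls whose groups did not overlap, the 6 called members with the smallest p in each list, all clock, cell cycle regulator and hedgehog genes, the study's composition markers and sex-linked genes. Not every list member of the rule is described, and genes outside it were chosen after their values were seen. Alternatives changed the floor, the filter, the scaling, the arrays in the fit, the covariates and the test, and left out each array in turn, where a lone array is assumed to vary like the other groups. Promoters came from RefSeq (GRCm38.p6), and figures were drawn with matplotlib 3.10.9.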

Additional observations from a re-analysis of the deposited data

How the results depend on the processing

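Over 33 arrays, 8988 probe sets differed between D3 and P44 and 12192 between D3 and natural early anagen. These counts stayed within 1.5 times with the floor at the 10th or 40th percentile, no filter or a filter on 3 or 10 arrays, quantile normalization, median centring, sex as a covariate, trend and robust options, or no probe sets with names ending in _s_at, _x_at or _a_at. Fewer passed in a fit of only the arrays compared (3971 against P44 and 8091 against natural early anagen, with fewer residual degrees of freedom), in the female arrays alone (3907 and 5794, with fewer arrays) and with 1 probe set per gene (4237 and 5618, with fewer tested). The methods compared phases of the natural cycle by one-way ANOVA on variance-transformed values. Its equivalent for 2 groups, run here on the log2 signals of the arrays compared and called the methods' t-test, gave 98 and 6822 after Benjamini-Hochberg adjustment, and 2766 and 6245 at an unadjusted p under 0.01. Leaving out 1 array gave 4639 to 7871 probe sets against P44 and 7656 to 11898 against natural early anagen, both lowest without D3 replicate 1. Of the probe sets called against P44, 40.7% were higher, against 47.7% after quantile normalization and 55.7% after median centring. Replicate numbers did not pair the samples: deviations from the group means of D3 and P44 correlated at 0.06 for replicates 1 and at 0.06 for replicates 2, and a replicate block gave 8876 and 12220. Of 223 calls on genes named by the rule, 221 were kept with the block, 209 with sex as a covariate, 207 after median centring, 138 without D3 replicate 1, 130 in the female arrays and 2 with the methods' t-test after adjustment, and 0 changed sign. Signals near the floor limit the smallest differences that could be read.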

Other observations

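Some differences between D3 and P44 ran through the whole depilation series. Of the 1703 genes called higher than at P44, 61 were higher on each of the 10 depilation arrays than on any of the 23 natural arrays. Of the 2410 called lower, 59 were lower on each. Genes not called against P44 were not counted. Among called probe sets, this held for 246 of the 3656 higher ones and 387 of the 5332 lower ones. Srrm2, a spliceosome component, lay between 5039.5 and 8507 on the depilation arrays and between 222 and 4517 on the natural arrays. Lgals7, galectin 7 of stratified epithelia, lay between 17957 and 25295 on the depilation arrays and between 4743 and 15870 on the natural arrays. Tns4, a tensin of epithelial cells, lay between 1792 and 4307 on the depilation arrays and between 644 and 1509 on the natural arrays. Slc44a2, a choline transporter-like protein, lay between 3561 and 6862 on the depilation arrays and between 7812 and 12755 on the natural arrays. Stat2 lay between 142 and 268 on the depilation arrays and between 284 and 665 on the natural arrays. All depilated mice were female, while the natural arrays came from both sexes. Depilation, the older age of the mice and any separate handling of the depilation arrays cannot be told apart in these genes.

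Other genes outside the lists were high at D3, and were chosen after their values were seen. Their calls were not checked with single arrays left out. Ankrd2, a muscle ankyrin repeat protein of stretched muscle, gave 6295 and 2659.6 on the D3 arrays, against 512, 549 and 799.8 on the P44 arrays (2.75 ± 0.53, adjusted p = 0.00053). Hspb7, a small heat shock protein of muscle, gave 15129 and 8397 on the D3 arrays, against 1405, 2514 and 2456 on the P44 arrays (2.46 ± 0.52, adjusted p = 0.0013). Plin5, which coats lipid droplets in oxidative tissue, gave 769 and 494 on the D3 arrays, against 142, 105 and 121 on the P44 arrays (2.34 ± 0.43, adjusted p = 0.00033). D3 replicate 1 was the highest array for these 3 genes, and D3 replicate 2 was above every P44 array. Bcl2l15, a relative of BCL2, gave 270.5 and 283 on the D3 arrays, against 9.4, 35.9 and 49.3 on the P44 arrays (2.81 ± 0.17, adjusted p = 1.2e-09), with 1 P44 array under the floor and the D3 arrays nearly level. Its lower D3 signal was 5 times the highest signal on the other 31 arrays. Whether it passed the filter only through the D3 arrays was not checked. Signals elsewhere were near the floor, which narrows the standard error, so its adjusted p does not rank it among the calls. Summed muscle gene signal was also highest on D3 replicate 1, and its part in the first 3 was not tested.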
